A study of Mus musculus with 12 samples.

Results

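The genes described here are 10 genes of mast cells and basophils, Mitf, Hdc, Ms4a2, Fcer1a, Cpa3, Mcpt8, Prss34, Gzmb, Cma1 and Tpsb2. They were chosen by name from the 24054 genes measured in each of 12 RNA sequencing libraries, and all 10 were found. The libraries came from E13.5 mouse fetal livers, from which early blood cells were sorted, and form 4 groups of 3. MPP mutants and LT-HSC mutants carried the genotype Setdb1 p/p;vav-cre. MPP controls and LT-HSC controls were Setdb1 +/p. Among these, MPP controls 1 and 2 and LT-HSC control 1 had no transgene, and MPP control 3 and LT-HSC controls 2 and 3 carried vav-cre as the mutants did. Every group therefore carried at least 1 p allele, which the labels do not describe further. Setdb1 encodes a methyltransferase for lysine 9 of histone H3, a modification of silent chromatin, and the vav-cre transgene expresses Cre recombinase from a promoter active across blood cells and not in 1 lineage alone. LT-HSC (long-term haematopoietic stem cells) were sorted as LSK cells with CD150 and without CD48, and MPP (multipotent progenitors) as LSK cells with CD48 and without CD150.

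Mast cells and basophils store histamine and proteases in granules, mast cells also heparin, and release them when IgE bound to their high-affinity receptor is crosslinked. Both arise in mice from progenitors of the bone marrow and, before birth, of the fetal liver, where the transcription factors GATA2, C/EBPα and MITF take part in the choice between the lineages. The granule proteases differ with the cell type: Mcpt8 and Prss34 are mainly basophil proteases in mice, Cma1 and Tpsb2 are a chymase and a tryptase of connective tissue mast cells, and Cpa3 is a carboxypeptidase of both. Some of the genes are also known outside these lineages: Hdc in myeloid-biased progenitors, Gzmb in cytotoxic lymphocytes and Mitf in melanocytes.

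The libraries held between 10119416 and 14113198 expected counts, so 1 count was worth between 0.066 and 0.0959 CPM (counts scaled to library size, with TMM factors). Separate animals are not named for the libraries of a group, so p-values measure the spread between these samples. Setdb1 itself lay between 86.9 and 117 CPM in MPP mutants and between 87.8 and 140 CPM in MPP controls (log2 fold change -0.12, edgeR adjusted p = 0.598), and between 66.4 and 80.8 CPM in LT-HSC mutants and between 73.4 and 108 CPM in LT-HSC controls (-0.27, edgeR adjusted p = 0.651). The labels do not say which part of the gene the p allele changes, so these counts do not check the genotype. Slamf1, which encodes CD150, stood at 1.09 to 2.39 CPM in MPP and at 34.7 to 41.6 CPM in LT-HSC libraries, Cd48 at 150 to 259 CPM in MPP and at 10.6 to 30.4 CPM in LT-HSC libraries, and Kit stood at 818 CPM or more in every library. The sorted cells were progenitors. Of genes of mature mast cells, Tpsab1, Mcpt4 and Mrgprb1 were at 0 in every library, while Cma1 and Tpsb2 had 9 and 6 counts over the series. Not all such genes were near 0, since the cytokine gene Il4 stood at 4.79 to 8.07 CPM in LT-HSC libraries. LT-HSC mutant 2 and LT-HSC control 2 stood apart from their groups in markers of other cells, with summed macrophage markers of 1175 CPM in LT-HSC mutant 2, against 44.28 and 160.4 CPM in mutants 1 and 3, and summed neutrophil markers of 1497 CPM in LT-HSC control 2, against 341.0 and 440.9 CPM in controls 1 and 3. In hepatoblast markers LT-HSC control 1 stood apart, with a sum of 425.9 CPM, against 1633 and 1648 CPM in controls 2 and 3, and the LT-HSC mutants had 52.92 to 409.7 CPM.

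Compared per length, the 10 genes spanned a wide range. Averaged over the 12 libraries, Hdc stood highest at 10.29 TPM (RSEM's length-scaled transcript share), followed by Cpa3 at 6.31, Mcpt8 at 3.38, Prss34 at 1.89, Mitf at 1.31 and Ms4a2 at 0.436 TPM. Fcer1a, Cma1, Tpsb2 and Gzmb lay between 0.0575 and 0.161 TPM and rested on 13, 9, 6 and 7 counts over the whole series. The order depended on the group. In MPP mutants Hdc (14.8 to 17.2 TPM) lay above Cpa3 (7.42 to 13.2 TPM), and Mcpt8 was at 0.21 to 0.77 TPM. In MPP controls Mcpt8 (4.69 to 18.1 TPM), Hdc (11.7 to 13.3 TPM), Cpa3 (7.49 to 13.47 TPM) and Prss34 (3.89 to 11.8 TPM) overlapped in their ranges over libraries. In LT-HSC mutants and in LT-HSC controls Hdc was the highest of the 10 in every library, at 7.49 to 8.84 TPM and 3.40 to 6.63 TPM.

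**Figure D1:**
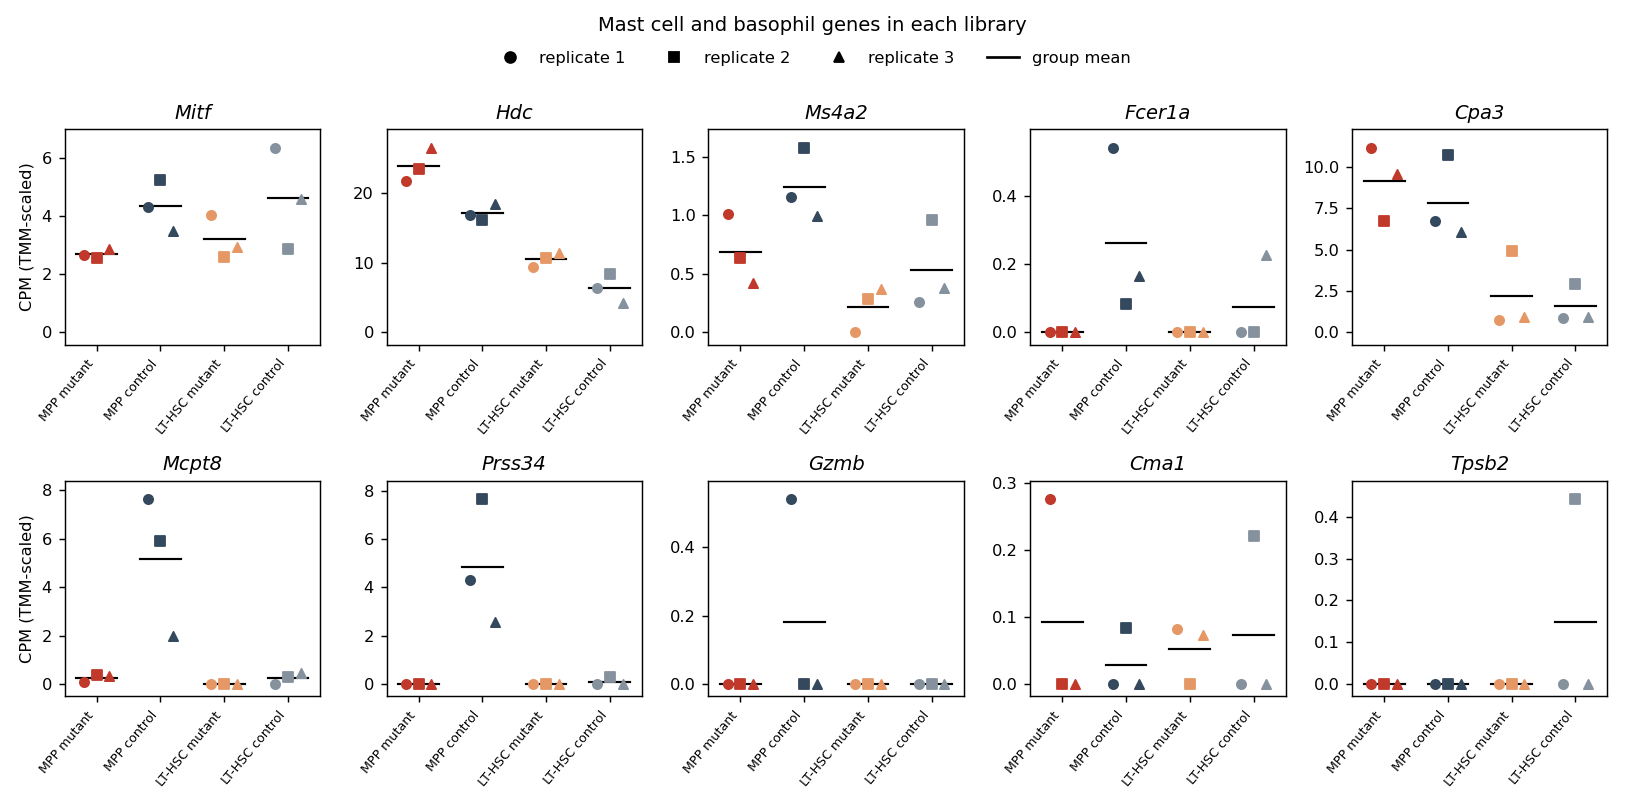
CPM of each of the 10 genes in each library, 1 panel a gene, with points for the 3 replicates of a group and a bar for the group mean (each panel has its own scale). Mcpt8 and Prss34 reach between 1.98 and 7.64 CPM in the 3 MPP controls and stay at or below 0.452 CPM in the other 9 libraries, while Hdc is highest in the MPP mutants.

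The first comparison set mutant MPP against control MPP. Both basophil proteases fell in the mutants, Mcpt8 to 0.264 ± 0.150 CPM, against 5.17 ± 2.89 CPM in the controls, and Prss34 to 0 CPM in every library, against 4.84 ± 2.58 CPM in the controls (SD, n = 3 each). Hdc, the enzyme that makes histamine from histidine, rose modestly to 23.9 ± 2.43 CPM in the mutants, against 17.1 ± 1.23 CPM in the controls. Mitf fell to 2.69 ± 0.172 CPM in the mutants, against 4.34 ± 0.881 CPM in the controls. Cpa3 and Ms4a2 did not pass the test. In bulk RNA, fewer cells of a type and less RNA per cell cannot be told apart.

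Mcpt8 lies on chromosome 14 and Prss34 on chromosome 17 (GRCm38.p6, chr14:56082163-56085499 and chr17:25298394-25300168). Cpa3 is at chr3:20215616-20242209 and Hdc at chr2:126593659-126624025. The promoter windows of the 2 proteases that fell and of Hdc and Cpa3, which did not, are shown for comparison, as RefSeq's table of GRCm38.p6 gives them, from 250 bases before to 50 after a transcript start. For Hdc, Mcpt8 and Cpa3 that start lies inside the gene span given above. Capitals mark the words of the GATA motif searched, on either strand, which are the word AGATAA, its variant ending in G, written as AGATAG, the word TGATAA, which starts with T, and its variant written as TGATAG. The windows are chr14:56085148-56085447 on the minus strand for Mcpt8, chr17:25298144-25298443 on the plus strand for Prss34, chr2:126618629-126618928 on the minus strand for Hdc and chr3:20242132-20242431 on the minus strand for Cpa3.
Mcpt8: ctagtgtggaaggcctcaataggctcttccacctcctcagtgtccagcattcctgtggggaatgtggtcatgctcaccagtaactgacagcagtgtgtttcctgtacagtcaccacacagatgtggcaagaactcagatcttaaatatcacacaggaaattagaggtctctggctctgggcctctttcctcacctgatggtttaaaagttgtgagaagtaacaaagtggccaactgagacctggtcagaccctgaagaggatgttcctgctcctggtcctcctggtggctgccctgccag
Prss34: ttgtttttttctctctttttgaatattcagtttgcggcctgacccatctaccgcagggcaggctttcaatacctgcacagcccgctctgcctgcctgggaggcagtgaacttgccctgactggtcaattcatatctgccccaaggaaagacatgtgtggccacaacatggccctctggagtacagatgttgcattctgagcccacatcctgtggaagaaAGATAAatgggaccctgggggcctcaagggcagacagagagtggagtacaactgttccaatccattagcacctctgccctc
Hdc: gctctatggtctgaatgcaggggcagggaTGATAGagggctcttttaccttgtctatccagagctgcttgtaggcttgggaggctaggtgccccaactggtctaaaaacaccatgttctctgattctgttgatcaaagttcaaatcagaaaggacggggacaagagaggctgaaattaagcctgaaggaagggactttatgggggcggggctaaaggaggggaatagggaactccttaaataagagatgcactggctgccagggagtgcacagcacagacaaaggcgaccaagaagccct
Cpa3: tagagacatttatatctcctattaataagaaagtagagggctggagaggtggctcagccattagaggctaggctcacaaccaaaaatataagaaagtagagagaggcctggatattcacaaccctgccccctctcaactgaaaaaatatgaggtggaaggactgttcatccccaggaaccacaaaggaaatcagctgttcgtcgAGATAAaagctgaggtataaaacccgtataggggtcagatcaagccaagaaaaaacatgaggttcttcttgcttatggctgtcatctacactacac

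The Mcpt8 window held no GATA word. The Prss34 window held AGATAA from 31 to 26 bases before the transcript start, the Cpa3 window AGATAA from 46 to 41 bases before it, and the Hdc window TGATAG from 221 to 216 bases before it. Windows were found for 9 of the 10 genes, 11 windows in all, since Mitf has 3. A GATA word stood in at least 1 window of 7 of the 9 genes (Mitf, Hdc, Ms4a2, Fcer1a, Cpa3, Prss34 and Cma1), and in 29.8% of 32851 promoter windows of the same length. The E-box words that MITF can bind (CATGTG and CACGTG, either strand) stood in windows of Fcer1a and Prss34 and in 20.4% of all windows. The C/EBP word TTGCNNAA stood in windows of Fcer1a and Mitf (10.8% of all windows), and the STAT word TTCNNNGAA in that of Gzmb (8.3% of all windows). No 2 of the matched words overlapped. These matches describe the letters of the windows and do not show binding.

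In counts, Mcpt8 had 1, 4 and 4 in MPP mutants 1, 2 and 3, against 99, 71 and 24 in MPP controls 1, 2 and 3. The groups did not overlap, and the lowest control lay far above the highest mutant. Summed and scaled to depth, 9 counts against 194 gave a level 19.6-fold lower in the mutants (10.1 to 43.5, 95% counting interval), and edgeR's quasi-likelihood test gave a log2 fold change of -4.26 (SE 0.606, adjusted p = 0.000339). Intervals and floors of this kind cover counting error only. Prss34 had no count in any MPP mutant, against 56, 92 and 31 counts in MPP controls 1, 2 and 3. Taking 3 counts over the 3 mutants as the most that a count of 0 allows, its level was at least 54.2-fold lower in the mutants (edgeR adjusted p = 0.000175). The exact 95% lower limit, which also takes in the counting error of the controls, was 43.6-fold. Its counts were present in every MPP control and absent from every MPP mutant. Mcpt8 and Prss34 passed the filter on low counts through the MPP controls alone and so had to be lower. Their adjusted p-values therefore support nothing by themselves.

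For Hdc, MPP mutants 1, 2 and 3 stood at 21.7, 23.4 and 26.5 CPM, against 16.8, 16.1 and 18.5 CPM in MPP controls 1, 2 and 3. The groups did not overlap, with a log2 fold change of 0.45 (SE 0.134, edgeR adjusted p = 0.0219). Mitf, a transcription factor that mast cells need to mature, stood at 2.67, 2.54 and 2.88 CPM in the mutants, against 4.32, 5.23 and 3.47 CPM in the controls, again without overlap (log2 fold change -0.71, SE 0.244, edgeR adjusted p = 0.0419). Neither call was firm. The Hdc call was lost when MPP mutant 2, MPP mutant 3 or MPP control 2 was left out, and the Mitf call was kept when MPP control 3 was left out and lost when any other library was. Hdc stayed higher (0.37 to 0.52) and Mitf lower (-0.84 to -0.55) in all 6 of these fits.

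Ms4a2 encodes the beta chain and Fcer1a the alpha chain of the high-affinity IgE receptor, the alpha chain being the one that binds IgE. Ms4a2 had 11, 7 and 5 counts in MPP mutants 1, 2 and 3, against 15, 19 and 12 in MPP controls 1, 2 and 3. The values of mutant 1 and control 3 overlapped in CPM, and the log2 fold change of -0.87 (SE 0.409) missed the threshold with edgeR (adjusted p = 0.12). Fcer1a had no count in any MPP mutant, against 7, 1 and 2 counts in the controls, at least 3.03-fold lower over the group (exact 95% lower limit 2.04). It lay under the filter on low counts; without the filter edgeR gave an adjusted p of 0.0485, and a fitted fold change of such a gene depends on the prior count. Cpa3 stood at 11.1, 6.71 and 9.57 CPM in the mutants, against 6.71, 10.7 and 6.03 CPM in the controls. Mutants and controls overlapped widely, with a log2 fold change of 0.20 (SE 0.254, edgeR adjusted p = 0.567).

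The remaining proteases were at the edge of detection in MPP. Gzmb, granzyme B, had 0 counts in the 3 mutants and 7, 0 and 0 counts in controls 1, 2 and 3, so its signal came from 1 library. Cma1 had 3, 0 and 0 counts in the mutants and 0, 1 and 0 in the controls, a ratio of 3.30 (counting interval 0.265 to 173). Tpsb2 had no count in any MPP library. Reads of Tpsb2 and its close copy Tpsab1 can be shared between the genes by the counting, and the library kit did not keep the strand.

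**Figure D2:**
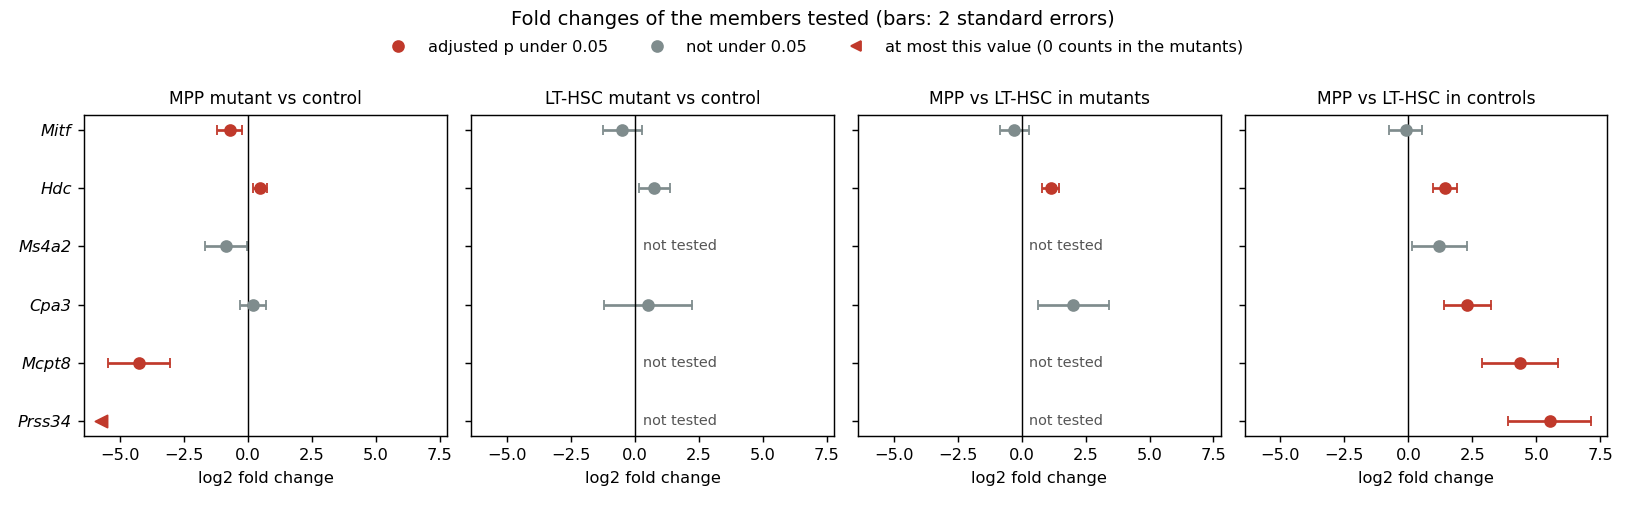
Log2 fold changes (horizontal axis) of the 6 genes with enough counts to be tested in at least 1 comparison, 1 panel a comparison, with bars of 2 SE and red for an edgeR adjusted p under 0.05. Mcpt8 and Prss34 stand far to the left in MPP mutants (Prss34 as a bound of -5.76, since it had 0 counts there) and to the right in control MPP against control LT-HSC, and Hdc lies right of 0 in all 4 panels.

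Of the 6 genes tested in MPP, 1 was called higher and 3 lower (35.0% of all 12392 genes tested were called, 16.5% higher and 18.5% lower), and their median log2 fold change was -0.79, against -0.01 over all genes tested. Mcpt8 and Prss34 passed the filter through the controls alone and so had to differ, which means that these counts and this median support nothing by themselves. Groups without overlap were found for 5 of the 10 genes, Hdc higher (26.6% of genes tested) and Mcpt8, Prss34, Fcer1a and Mitf lower (24.4% of genes tested). MPP control 3 was the only MPP control with the vav-cre transgene. It had the lowest Mcpt8, Prss34 and Mitf values and the highest Hdc value of the 3 controls. A joint fit of all groups with Cre-positive controls only has that library as its sole MPP control, so the spread comes from the other groups and the library is assumed to vary like them. There the log2 fold change of Mcpt8 was -2.91 (SE 0.864, edgeR adjusted p = 0.17), against -4.23 (adjusted p = 0.00671) in a joint fit of all 12 libraries. The fitted value of Prss34, which depends on the prior count, was -8.00 (edgeR adjusted p = 0.155), against -8.91 (adjusted p = 0.00443). In the same joint fits Hdc was at 0.31 against 0.48 and Mitf at -0.42 against -0.68. With all 12 libraries neither passed (edgeR adjusted p = 0.123 for Hdc and 0.142 for Mitf). The 24 counts of Mcpt8 and 31 of Prss34 in MPP control 3 were above all 3 mutants. The transgene and the genotype can therefore be told apart in MPP by 1 control library only.

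Markers of other cells moved with the genotype in MPP, and their part in these results was not tested. Over all genes tested, 18.5% were lower and 16.5% higher. Of 11 macrophage markers tested, 10 were lower in the mutants, with sums over 12 genes between 108.0 and 232.4 CPM in MPP mutants and between 775.1 and 1125 CPM in MPP controls. Of 13 red cell markers, 11 were higher, with sums between 5474 and 8393 CPM in MPP mutants and between 1691 and 3257 CPM in MPP controls. Of 9 neutrophil markers, 5 were higher, although the summed levels overlapped, at 2493 to 3248 CPM in MPP mutants and 2342 to 2789 CPM in MPP controls. Eosinophil markers summed to 12.06 to 14.81 CPM in MPP mutants and 15.94 to 17.35 CPM in MPP controls, with 2 of 4 tested lower. Those 2, Ear2 and Il5ra, passed the filter on low counts through the MPP controls, Ear2 alone so and Il5ra mainly so. Their count supports nothing by itself. Lower in the mutants without overlap were also the sums of markers of B cell precursors and plasmacytoid dendritic cells (6 of 6 lower, 128.4 to 164.8 CPM in MPP mutants and 273.3 to 320.8 CPM in MPP controls), of megakaryocytes (2 of 6 tested lower, 164.9 to 221.8 CPM in MPP mutants and 347.4 to 384.4 CPM in MPP controls) and of hepatoblasts (5 of 12 lower, 58.51 to 106.0 CPM in MPP mutants and 161.3 to 441.2 CPM in MPP controls). Among these markers, Siglech passed the filter on low counts through the MPP controls alone, and Vcam1, Timd4, Cd79a and Clec1b mainly so. Part of the counts of lower genes was therefore fixed by the filter. Of 8 markers of the sorted cells themselves, 4 were lower, among them Ly6a (-1.07) and Flt3 (-0.94).

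Cytotoxic lymphocytes also express Gzmb, and melanocytes also express Mitf. Of 8 markers of NK and cytotoxic T cells, Gzma and Ncr1 were at 0 in all 12 libraries, while Nkg7 stood at 19.6 to 30.2 CPM in MPP mutants and 28.6 to 38.1 CPM in MPP controls, and Klrd1 fell (log2 fold change -2.53, edgeR adjusted p = 0.000174). Klrd1 passed the filter on low counts through the MPP controls alone and so had to be lower. Klrb1c went the other way without overlap and was not called. It stood at 1.56, 1.09 and 1.27 CPM in MPP mutants, against 0.925, 0.83 and 0.496 CPM in MPP controls. The list summed to 21.76 to 32.93 CPM in MPP mutants and 32.71 to 42.71 CPM in MPP controls. Of 5 melanocyte markers, Tyr, Tyrp1 and Dct were at 0 in all 12 libraries and Pmel was above 0 in all 12, with list sums of 1.186 to 1.288 CPM in MPP mutants and 0.991 to 1.93 CPM in MPP controls.

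**Figure D3:**
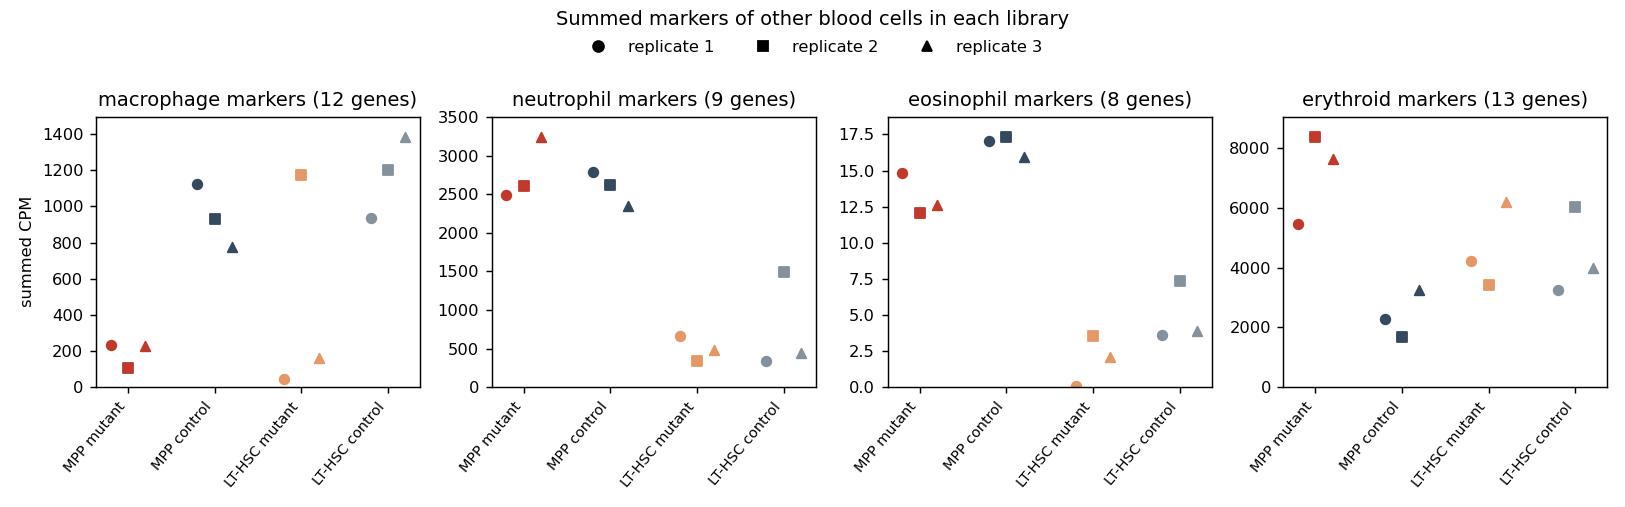
Summed CPM (vertical axis) of marker genes of 4 other blood cell types in each library, with points for the 3 replicates of a group. The 3 MPP mutants lie below the 3 MPP controls for macrophage markers and above them for red cell markers, LT-HSC mutant 2 lies with the LT-HSC controls for macrophage markers, and LT-HSC control 2 lies above the other LT-HSC libraries for neutrophil markers.

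The proteases have many relatives beside them in the genome, and the fall of Mcpt8 was not shared by its neighbour. Ctsg, cathepsin G, a protease of neutrophil granules and 1 of the 9 neutrophil markers above, is the next gene of the list after Mcpt8 on chromosome 14 (chr14:56099885-56102574). It stood at 36.9, 51.6 and 63.4 CPM in MPP mutants 1, 2 and 3, against 30.3, 24.1 and 24.5 CPM in MPP controls 1, 2 and 3. The groups did not overlap, with a log2 fold change of 0.92 (SE 0.181, edgeR adjusted p = 0.00259), the opposite direction to Mcpt8. The other 12 chymase and granzyme genes listed at this locus, such as Mcpt4 and Gzmc, were at 0 in every library. Around Prss34, 9 listed genes of the tryptase region were measured and 0 had enough counts to be tested. Their sums were 0.169 to 0.544 CPM in MPP mutants and 0.308 to 0.332 CPM in MPP controls, so Prss34 was the only gene of this region above 1 CPM in any MPP library.

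**Figure D4:**
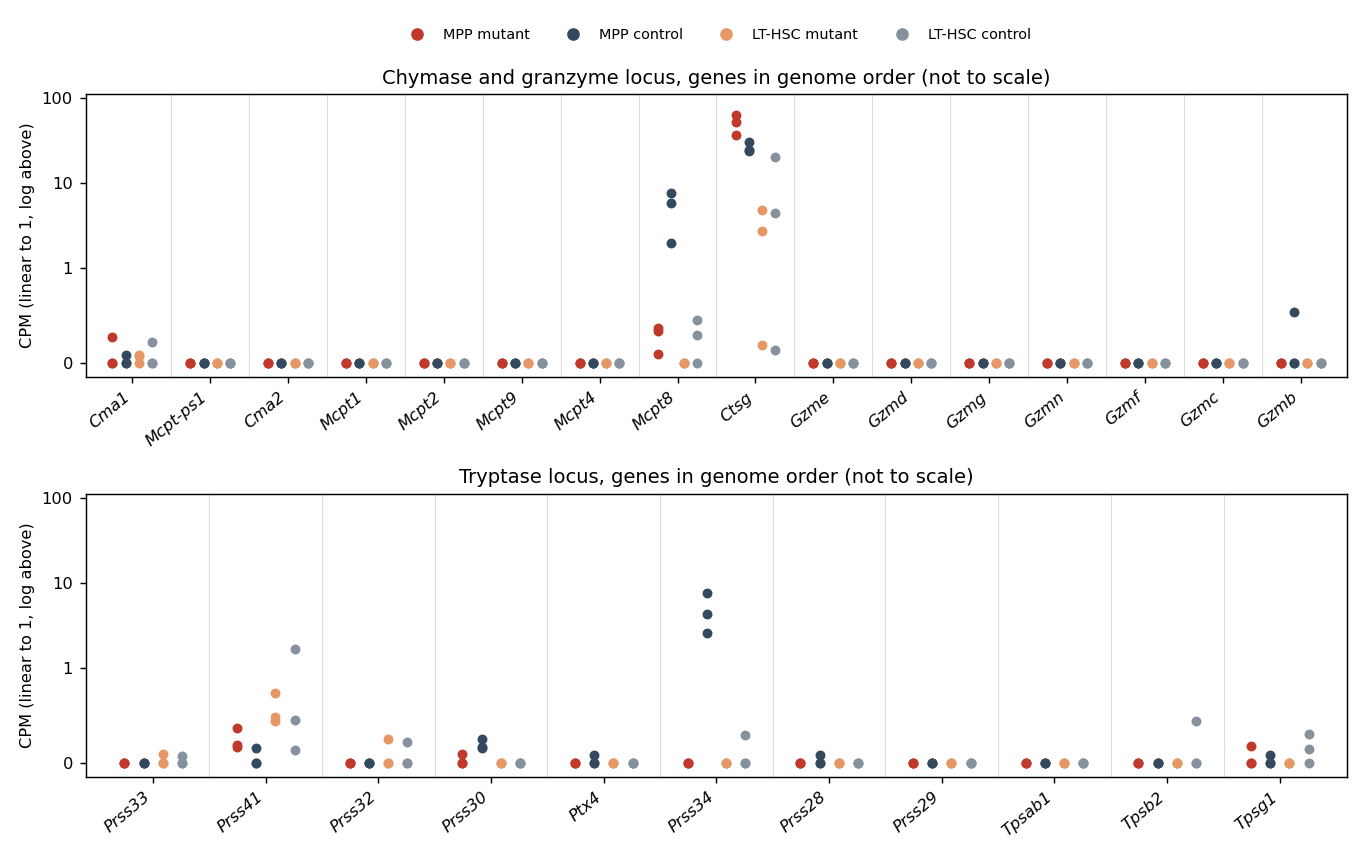
CPM (vertical axis, linear to 1 and logarithmic above) of genes at the chymase and granzyme locus of Mcpt8 and in the tryptase region of Prss34, in genome order and not to scale, with 3 points a group. Mcpt8 and its neighbour Ctsg are the genes with signal above 1 CPM at the first locus, with opposite order of MPP mutants and MPP controls, and Prss34 is the gene above 1 CPM in MPP controls in the second.

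The second comparison set mutant LT-HSC against control LT-HSC. None of the 10 genes was called, and the counts were low. Of the 3 genes tested, 0 were called higher and 0 lower by edgeR (0.420% of all 12847 genes tested were called, 0.257% higher and 0.163% lower), 1 had an unadjusted p under 0.05, and 0 were called by DESeq2. Their median log2 fold change was 0.52, against 0.03 over all genes tested. Hdc stood at 9.38, 10.7 and 11.4 CPM in LT-HSC mutants 1, 2 and 3, against 6.33, 8.39 and 4.29 CPM in LT-HSC controls 1, 2 and 3. The groups did not overlap (6.89% of genes tested did so in this direction and 9.58% in the other), and the log2 fold change was 0.76 (SE 0.298, edgeR adjusted p = 0.474).

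Mitf in LT-HSC stood at 4.03, 2.59 and 2.95 CPM in the mutants, against 6.33, 2.87 and 4.59 CPM in the controls, with overlap and a log2 fold change of -0.49 (SE 0.385, edgeR adjusted p = 0.736). Cpa3 had 9, 51 and 13 counts in LT-HSC mutants 1, 2 and 3, against 13, 40 and 12 in LT-HSC controls 1, 2 and 3. The second library was the highest in each group, and both are the libraries that stand apart in markers of other cells. The log2 fold change of 0.52 (SE 0.858, edgeR adjusted p = 0.898) turned to -0.87 without LT-HSC mutant 2. The replicate numbers are counted as pairs in LT-HSC, and with the replicate as a block 0 of the 3 genes were called.

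The basophil proteases and receptor chains were near 0 in LT-HSC. Mcpt8 had no count in the 3 LT-HSC mutants, against 0, 4 and 6 counts in the controls, at least 2.87-fold lower over the group (exact 95% lower limit 1.93). Prss34 had no count in the mutants and 0, 4 and 0 counts in the controls. Ms4a2 had 0, 3 and 5 counts in the mutants and 4, 13 and 5 in the controls, a summed level 2.37-fold lower with a counting interval from 1.01 to 6.15. These 3 genes lay under the filter. Fcer1a had 0 counts in the mutants and 3 in control 3 alone, and Gzmb had none in either group. Cma1 had 1, 0 and 1 counts in the mutants and 0, 3 and 0 in the controls, and Tpsb2 had 0 counts in the mutants and 0, 6 and 0 in the controls. All protease counts of Tpsb2, Cma1 and Prss34 in LT-HSC controls came from control 2, the library with the highest neutrophil marker sum. Control 1, without any Mcpt8 count, was the LT-HSC control with the lowest hepatoblast marker sum. The part of those other cells in these counts was not tested.

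Whether the genotype acted differently in MPP and LT-HSC was tested with an interaction of genotype and cell type. Of 6 genes tested, 0 were called by edgeR (0.377% of all 13249 genes tested were called, 0.151% higher and 0.226% lower, 20 and 30 genes, or 11 and 30 with upper-quartile scaling), 0 had an unadjusted p under 0.05, and 0 were called by DESeq2. The difference of log2 fold changes, MPP minus LT-HSC, was -0.25 (SE 0.299, edgeR adjusted p = 0.832) for Hdc, -0.23 (SE 0.893, adjusted p = 0.965) for Cpa3, -0.16 (SE 0.44, adjusted p = 0.946) for Mitf and 0.38 (SE 0.993, adjusted p = 0.941) for Ms4a2. For Mcpt8 the fitted value was 0.42 (adjusted p = 0.867). It depends on the prior count, since the LT-HSC mutants had no count of Mcpt8. For Prss34, which had no count in either mutant group, the interaction could not be estimated. The fall of Mcpt8 and Prss34 in MPP was thus not shown to differ from LT-HSC, where the controls had 10 and 4 counts of them in all.

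The third comparison set MPP against LT-HSC, using the same control and mutant libraries as the comparisons above. In controls, Cpa3, Hdc, Mcpt8 and Prss34 were higher in MPP. Of the 6 genes tested, 4 were called higher and 0 lower (38.5% of all 12834 genes tested were called, 18.0% higher and 20.5% lower), with a median log2 fold change of 1.87, against -0.01 over all genes tested. Mcpt8 and Prss34 passed the filter through MPP controls alone and Ms4a2 mainly so, which means that this count and this median support nothing by themselves. Cpa3 stood at 6.71, 10.7 and 6.03 CPM in MPP controls 1, 2 and 3, against 0.858, 2.95 and 0.904 CPM in LT-HSC controls 1, 2 and 3, without overlap (log2 fold change 2.31, SE 0.462, edgeR adjusted p = 0.00355). Without LT-HSC control 2, its highest LT-HSC control, the log2 fold change was 3.13. Hdc was 1.43 higher on the log2 scale in MPP controls (SE 0.241, edgeR adjusted p = 0.00138), also without overlap.

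Mcpt8 averaged 5.17 ± 2.89 CPM in MPP controls and 0.249 ± 0.229 CPM in LT-HSC controls (SD, n = 3 each), a log2 fold change of 4.37 (SE 0.742, edgeR adjusted p = 0.00144) that ranged from 3.75 without LT-HSC control 1 to 5.10 without LT-HSC control 3. Prss34 had 179 counts in MPP controls and 4 counts, all in control 2, in LT-HSC controls (log2 fold change 5.52, SE 0.81, edgeR adjusted p = 0.000608; without LT-HSC control 2 the LT-HSC controls have none). Since Mcpt8 and Prss34 passed the filter through MPP controls alone, their adjusted p-values here support nothing by themselves. Groups without overlap were found for 5 of the 10 genes, all higher in MPP (24.6% of genes tested, and 26.5% were lower). Ms4a2 averaged 1.24 ± 0.302 CPM in MPP controls and 0.533 ± 0.372 CPM in LT-HSC controls (log2 fold change 1.21, SE 0.542, edgeR adjusted p = 0.103), and passed without LT-HSC control 2 (1.93, adjusted p = 0.0315). Mitf did not pass, at 4.34 ± 0.881 CPM in MPP controls and 4.60 ± 1.73 CPM in LT-HSC controls (log2 fold change -0.10, SE 0.323, edgeR adjusted p = 0.837). A joint fit with Cre-positive controls only, in which 1 library is the whole MPP control group and the spread comes from the other groups, called 0 of the 6 genes. Its log2 fold changes were 1.71 for Cpa3, 1.61 for Hdc, 2.45 for Mcpt8 and 4.08 for Prss34, all higher in MPP, and with this single MPP control the missing calls do not show that the cell types were alike.

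In mutants, Hdc alone was called. Of the 3 genes tested, 1 was called higher in MPP and 0 lower (22.8% of all 12452 genes tested were called, 7.98% higher and 14.9% lower), with a median log2 fold change of 1.13, against 0.00 over all genes tested. Hdc stood at 21.7, 23.4 and 26.5 CPM in MPP mutants 1, 2 and 3, against 9.38, 10.7 and 11.4 CPM in LT-HSC mutants 1, 2 and 3 (log2 fold change 1.13, SE 0.169, edgeR adjusted p = 0.00679). Cpa3 was higher in MPP mutants in value, at 11.1, 6.71 and 9.57 CPM, against 0.741, 4.89 and 0.958 CPM in LT-HSC mutants, without overlap, but missed the threshold (log2 fold change 2.02, SE 0.692, edgeR adjusted p = 0.0747). It passed without LT-HSC mutant 2 (3.37, adjusted p = 0.00296), the library with the high macrophage sum. Mitf was at 2.69 ± 0.172 CPM in MPP mutants and 3.19 ± 0.752 CPM in LT-HSC mutants (log2 fold change -0.29, SE 0.283, edgeR adjusted p = 0.47). Mcpt8 had 9 counts over the MPP mutants and 0 over the LT-HSC mutants, at least 3.22-fold higher in MPP mutants (exact 95% lower limit 2.12). Groups without overlap were found for 4 of the 10 genes, all higher in MPP (25.6% of genes tested, and 21.9% were lower).

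Genes that work with these 10 were read from lists that hold none of them. In MPP, the IgE receptor signalling list had 17 genes tested, 8 lower and 1 higher in the mutants, with a median log2 fold change of -0.40, against -0.01 over all genes. For this and the following lists the share over all genes tested was 18.5% lower and 16.5% higher. Fcer1g, the gamma chain that the receptor shares with other Fc receptors, stood at 45.5, 45.3 and 58.9 CPM in MPP mutants 1, 2 and 3, against 122, 126 and 98.1 CPM in MPP controls 1, 2 and 3. The groups did not overlap, with a log2 fold change of -1.23 (edgeR adjusted p = 5.08e-05). Macrophages also express Fcer1g, and LT-HSC mutant 2, with its high macrophage sum, had 93.3 CPM, against 27.1 and 24.8 CPM in LT-HSC mutants 1 and 3. The kinases Lyn (-0.82) and Syk (-0.74) fell too, and the adaptor Gab2 rose (1.21).

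Of 12 growth factor and cytokine receptors tested in MPP, 5 were lower and 2 higher in the mutants (median -0.48, with 18.5% of all genes lower and 16.5% higher). Il1rl1, the receptor for interleukin 33 on mast cells and basophils, stood at 33.1, 54.1 and 39.3 CPM in MPP mutants, against 7.63, 6.64 and 3.39 CPM in MPP controls (log2 fold change 2.81, edgeR adjusted p = 2.49e-05), the opposite direction to the basophil proteases. Epor, the erythropoietin receptor of red cell precursors and 1 of the 13 red cell markers, rose as well (1.67). Csf2rb, the shared beta chain of the receptors for interleukins 3 and 5 and GM-CSF, fell (-0.94), as did its mouse relative Csf2rb2 (-1.22) and Il5ra (-1.28, edgeR adjusted p = 0.0258). Il5ra passed the filter on low counts mainly through the MPP controls. Kit, the receptor for stem cell factor that mast cells depend on, did not pass (-0.05, SE 0.0857, edgeR adjusted p = 0.685), nor did Il3ra (-0.57, edgeR adjusted p = 0.0869).

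Of 20 transcription factors of the mast cell and basophil path tested in MPP, 5 were lower and 4 higher in the mutants (median -0.10), or 25% and 20%, near the 18.5% and 16.5% of all genes. Hes1, a target of Notch signalling, had the largest fitted fold change among the 20. It passed the filter on low counts through the MPP controls alone and so had to be lower. Its call, among the 5 lower, therefore supports nothing by itself. Hes1 was at 0, 0 and 0.0847 CPM in MPP mutants, the last being 1 count, against 2.85, 3.24 and 2.48 CPM in MPP controls. The summed level was 96.3-fold lower with a counting interval from 16.9 to 3840 (edgeR adjusted p = 2.71e-05). Gata1 (1.66), itself 1 of the 13 red cell markers above, and its partner Zfpm1 (1.42) rose. Both act in red cells, and Gata1 acts in mast cells as well. Zeb2, a repressor, fell (-0.71). Gata2 (0.31, edgeR adjusted p = 0.146) and Cebpa (-0.54, edgeR adjusted p = 0.0991), the factors whose balance steers the choice between mast cell and basophil in mice, did not pass.

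Granule storage, amine and lipid mediator genes had 16 tested in MPP, 7 lower and 1 higher in the mutants (median -0.44, with 18.5% of all genes lower and 16.5% higher). Hpgd, which breaks down prostaglandins, stood at 1.93, 1.27 and 1.52 CPM in MPP mutants, against 38.3, 55.9 and 38.1 CPM in MPP controls (log2 fold change -4.83, edgeR adjusted p = 1.67e-07). Ctsl (-0.97), Rab27a (-0.66) and Ptgs1 (-0.62) fell, and Alox5 rose (1.17). Mature surface and cytokine genes had 14 tested, 10 lower and 0 higher (median -0.66, with the same shares of all genes), with Lilrb4 at -1.27, Cyp4f18 at -1.22, Itgb7 at -0.998 and Itgam at -0.65. Of the 10, Cd200r3 and Cyp11a1 passed the filter on low counts through the MPP controls alone and Adora3 mainly so, and these had to be lower, so the count and median support nothing by themselves. Cd200r3, a receptor of basophils and mast cells, had a log2 fold change of -2.22 (edgeR adjusted p = 0.00442), with 0.46, 0.0907 and 0.762 CPM in MPP mutants, against 2.39, 2.24 and 1.57 CPM in MPP controls. Several of these genes, such as Itgam and Lilrb4, are also expressed by macrophages, whose markers fell in the same libraries.

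**Figure D5:**
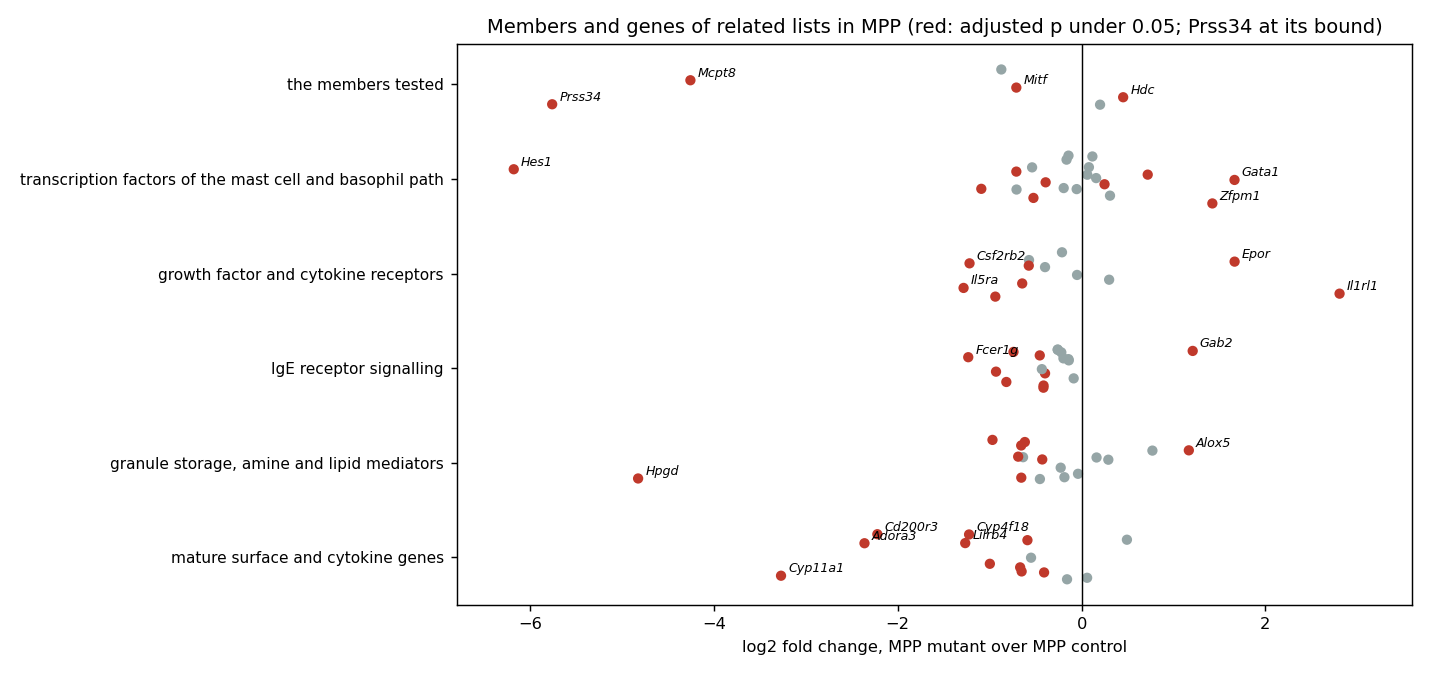
Log2 fold changes of MPP mutant over MPP control (horizontal axis) for the tested genes among the 10 and for 5 lists of genes that work with them, 1 point a gene, red for an edgeR adjusted p under 0.05. Hes1 and Hpgd lie as far left as Mcpt8 and Prss34 (Prss34 drawn at its bound of -5.76), Il1rl1 lies farthest right, and 10 of 14 mature surface and cytokine genes are red and left of 0.

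In LT-HSC mutants against controls, 0 genes of these lists were called by edgeR, with 17, 11, 19, 17 and 13 tested in the 5 lists above and 1, 3, 1, 4 and 1 of them at an unadjusted p under 0.05. By DESeq2, 1 receptor was called. Between MPP and LT-HSC in controls, 9 of 17 IgE receptor signalling genes were higher and 2 lower in MPP (18.0% of all genes tested were higher and 20.5% lower), among them the adaptor Lat2 (3.36), Syk (0.71), Fcer1g (0.85) and Lcp2 (-0.69). Of 17 granule and mediator genes, 3 were higher and 7 lower, with Cd63 at -1.28 and Ptges at -3.49. Slc18a2, which loads histamine into granules, stood at 30.9, 26.2 and 21.5 CPM in MPP controls, against 154, 129 and 112 CPM in LT-HSC controls (log2 fold change -2.33, edgeR adjusted p = 6.4e-06), and Hnmt, which inactivates histamine, at 5.55, 6.14 and 3.97 CPM, against 17.6, 21.4 and 17.9 CPM (-1.86, edgeR adjusted p = 0.000119). Hdc, the gene of histamine synthesis, was thus higher and these genes of its storage and breakdown lower in MPP controls than in LT-HSC controls. Among the transcription factors, Gata2 (-1.86) and Nfe2 (-0.85) were lower and Cebpa (3.68) and Ikzf1 (1.077) higher in MPP controls than in LT-HSC controls.

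For the 3 genes of highest mean TPM, the genes most like them across the 12 libraries were found by the mean absolute difference of log2 CPM after each gene was centred, over 13249 genes. Genes with placeholder symbols (Gm, Rik, LOC, Mir or Snor) were passed over in this ranking. Nearest to Mcpt8 were Klf4 (0.485), AI839979 (0.512) and Lilra6 (0.522). Klf4, a transcription factor of monocytes, stood at 0.560 ± 0.110 CPM in MPP mutants, 5.50 ± 1.37 CPM in MPP controls, 0.234 ± 0.183 CPM in LT-HSC mutants and 0.788 ± 0.572 CPM in LT-HSC controls (SD, n = 3 each). Nearest to Hdc were Tmem184c (0.179), Hnrnpa0 (0.234) and Pa2g4 (0.238), and nearest to Cpa3 were Clec4d (0.321), Pkib (0.366) and Card9 (0.389). Tmem184c had the same order of group means as Hdc, at 33.1 CPM in MPP mutants, 22.1 CPM in MPP controls, 13.2 CPM in LT-HSC mutants and 7.5 CPM in LT-HSC controls. These values describe likeness over libraries that share their groups and depth.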

How the data were processed

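RNA from 12 sorted libraries was sequenced after low-input, unstranded library preparation (10 ng of RNA, 500 to 1000 LT-HSC or 20000 MPP), per the labels' protocols. The submitters' processing notes name STAR, RSEM and mm10, with versions not given in the sources used here. Tables deposited by the authors hold RSEM's expected counts, estimates that need not be whole (7.13% to 7.76% of values were fractional), and TPM, per the file headers.

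Expected counts were rounded and tested with edgeR 4.0.16 (R 4.3.3, quasi-likelihood test, TMM scaling, filterByExpr with minimum count 10 and total 15) in the 6 libraries of each comparison, or all 12 for the interaction. Benjamini-Hochberg adjustment ran over all genes tested, at a threshold of 0.05. The SE was computed as the absolute log2 fold change divided by the square root of edgeR's F statistic. The scripts were checked on simulated data. DESeq2 1.42.0 and the other alternatives are given in the closing section. Floors took 3 counts over a group, and intervals of count ratios are exact 95% intervals. Likeness used log2 CPM with a prior count of 2.

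Groups and replicate numbers came from the titles and genotype labels. Same-numbered LT-HSC mutants and controls deviated together (r across genes 0.108, 0.148 and 0.175), so by a rule that takes every r above 0.1 the numbers count as pairs there, although the labels do not explain the numbers. Unlike-numbered LT-HSC mutants and controls had r from -0.203 to 0.056. In MPP, however, unlike-numbered mutant 2 and control 3 reached 0.21, so an r of this size does not by itself show pairing. No replicates agreed within sampling noise (chi-square per gene 5.01 to 47.2). The 10 genes, the lists and the rules were chosen with earlier results of these data known. Genes of a list were named from the 4 smallest adjusted p among those called, not all of which are printed for the comparisons of cell types and the marker lists, and others for their known role or after their values were seen. Promoter windows are RefSeq's, GRCm38.p6, and no window is given for Tpsb2.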

Additional observations from a re-analysis of the deposited data

Results flagged for a closer look

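Hes1, from the list of transcription factors, differed in its response to the genotype between MPP and LT-HSC by edgeR's test of the interaction. The fitted difference was -5.92 on the log2 scale (SE 0.955, adjusted p = 0.0288), with 1 count over the 3 MPP mutants against 106 over the 3 MPP controls, and 39 counts over the 3 LT-HSC mutants against 54 over the 3 LT-HSC controls. The call was not firm. Without MPP mutant 2 this test called 0 genes lower, so the Hes1 call was lost there.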

How the results depend on the processing

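Of the results on single genes, 303 kept their direction and their side of the threshold under an alternative, 20 lost a call, 4 gained one and 15 turned round. In MPP mutants against controls the 4 called genes became 2 in a joint fit of all 12 libraries, 0 with Cre-positive controls only, also a joint fit, and 2 to 4 without 1 library. In MPP against LT-HSC the 4 in controls stayed 4 in the joint fit and became 0 in that with Cre-positive controls only and 4 to 5 without 1 library, and the 1 in mutants became 2 by DESeq2, 2 in the joint fit and 1 to 2 without 1 library. The 0 called in LT-HSC and in the interaction stayed 0 in every alternative run. The cause was not tested. The fit with Cre-positive controls only changes both the control set and the fit, and leaves 1 MPP control.

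Over all genes, the 54 called in LT-HSC became 260 by DESeq2, 250 in the joint fit and 13 to 102 without 1 library (102 without LT-HSC mutant 2). The 4337 in MPP became 2792 in the joint fit, 125 in the joint fit with Cre-positive controls only and 2774 to 4756 without 1 library. Between cell types, the 4942 in controls became 4152 in the joint fit, 327 in that with Cre-positive controls only and 3410 to 4873 without 1 library, and the 2845 in mutants became 4729 in the joint fit and 582 to 5087 without 1 library. The 50 of the interaction became 334 by DESeq2, 87 with no filter, 0 with Cre-positive controls only and 1 to 885 without 1 library.

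Directions turned only for values that had missed the threshold. Without 1 library, Cpa3 in LT-HSC ranged from -0.87 to 1.36 and Mitf between the controls from -0.34 to 0.21. In the interaction the ranges were -1.05 to 1.09 for Cpa3, -0.33 to 1.04 for Ms4a2, -0.33 to 0.99 for Mcpt8 and -0.46 to 0.0902 for Mitf. There, Cpa3 was 0.0359 with a replicate block and 0.33 with Cre-positive controls only, and Mcpt8 was -0.33 by DESeq2.

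With the replicate number as a block, Mitf in MPP lost its call (-0.70, adjusted p = 0.0835), 3 of the 6 genes stayed called there, and 48 genes were called in LT-HSC and 3765 in MPP. Same-numbered MPP libraries did not deviate together (r -0.0247, -0.212 and -0.177), so the block has no basis there. Depth limits Fcer1a, Gzmb, Cma1 and Tpsb2, which had at most 13 counts over the series.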

Other observations

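The alleles of vav-cre also divide the controls. MPP control 3, the MPP control with the transgene, had 24 counts of Mcpt8 and 31 of Prss34, against 99 and 71 of Mcpt8 and 56 and 92 of Prss34 in MPP controls 1 and 2. In LT-HSC the order was otherwise, with Mcpt8 at 4 and 6 counts in the controls 2 and 3 that carry the transgene and 0 in control 1, whose hepatoblast marker sum of 425.9 CPM was also the lowest of the 3.

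Il4, the cytokine that basophils and mast cells release, was lower in MPP than in LT-HSC. In mutants and in controls it passed the filter on low counts through the LT-HSC libraries alone and so had to be lower in MPP. Its adjusted p-values therefore support nothing by themselves. Its levels were 0.644, 0.453 and 0.169 CPM in MPP mutants, against 8.07, 4.79 and 6.49 CPM in LT-HSC mutants (log2 fold change -3.96, edgeR adjusted p = 0.00363), and at 0.771, 0.332 and 0.661 CPM in MPP controls, against 6.47, 5.82 and 5.65 CPM in LT-HSC controls (-3.32, edgeR adjusted p = 9.27e-05).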
